A study of Mus musculus with 93 samples.

Results

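The insulin-like growth factor (IGF) genes described here are 10 genes chosen by name from the 24514 gene symbols of the count table, and all 10 were present in it. They comprise 7 genes of binding and signalling, Igf1, Igf1r, Irs1, Igfbp2, Igfbp3, Igfbp4 and Igfbp5, and 3 genes of RNA-binding proteins, Igf2bp1, Igf2bp2 and Igf2bp3. RNA was sequenced from 93 libraries of 10 sorted mouse cells each. All cells carried Hcn4-GFP, which is on in the first heart field, together with Tbx1-Cre and the Ai9 reporter, which leaves RFP permanently in cells of the Tbx1 lineage in the second heart field. Libraries were made from embryo GFP+ cells (n = 5), embryo RFP+ cells (n = 4), spheroid GFP+ cells (n = 38) and spheroid RFP+ cells (n = 46). The library titles give embryonic day 8.5 for the embryos, whereas the dissection protocol gives E7.75. The spheroids were precardiac cultures of embryonic stem cells of the same genotype, sorted on day 5.5. Each library is a well of a plate, and how many embryos or cultures the wells came from is not given in the sources used here, so p-values measure the spread between wells. GFP+ and RFP+ spheroid cells had no plate column in common, nor had embryo and spheroid cells of the same population, so that column and group cannot be told apart in these comparisons.

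IGF1 is a secreted ligand that activates the receptor tyrosine kinase IGF1R, which signals through adaptors such as IRS1 to the PI3K and AKT kinases and promotes growth and survival of embryonic cells. The IGF-binding proteins are secreted carriers that hold the ligands in the extracellular space, and proteases release the ligands from them. Depending on the setting they restrain or enhance signalling. The IGF2BP proteins share only a name with these carriers. They sit in the cytoplasm on mRNAs, among them that of Igf2, and are typical of embryonic tissue, where their own mRNAs are classical targets of the let-7 microRNAs. LIN28A and LIN28B block the maturation of let-7.

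The 3 Igf2bp genes share a stretch of sequence that the choice of genes did not use. In the GENCODE M21 annotation of GRCm38, the longest 3′ UTR of each held at least 1 copy of CTACCTC, the complement of the let-7 seed: 4 copies in Igf2bp1, 1 in Igf2bp2 and 1 in Igf2bp3. Single copies were also found in Igfbp5 and Igf1 and 2 copies in Igf1r, while Igfbp2, Igfbp3, Igfbp4 and Irs1 had none. The same letters were in 8.6% of the 3′ UTRs of 21851 protein-coding genes, and in 19.9% of those with at least 2000 bases, with 0.146% holding 3 copies or more. MicroRNAs were not measured here. The RefSeq mature sequence of let-7a is shown with its seed, bases 2 to 8, in capitals. Below it stands 1 site each of the Igf2bp genes, which are classical let-7 targets, and of Igfbp5, on which the comparisons turn, with CTACCTC in capitals. For Igf2bp1 this is 1 of its 4 sites:
mmu-let-7a-5p: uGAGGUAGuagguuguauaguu
Igf2bp1, chr11:95961777-95961806, minus strand: ggcagtgctgtgcgaagtaaaCTACCTCaa
Igf2bp2, chr16:22059472-22059501, minus strand: agaaaaacacacaaataaaagCTACCTCag
Igf2bp3, chr6:49086786-49086815, minus strand: taaacgtgcatttttactcaaCTACCTCag
Igfbp5, chr1:72859678-72859707, minus strand: gttagccttccccaggtcagcCTACCTCcc

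Igfbp2 and Igfbp5 are neighbours that are transcribed towards each other on chromosome 1. In GRCm38, Igfbp2 (ENSMUSG00000039323) lies on the plus strand at chr1:72824503-72852474 and Igfbp5 (ENSMUSG00000026185) on the minus strand at chr1:72857932-72874884, with 5457 bases between their ends. The 250 bases before the RefSeq start of each (GRCm38.p6) are printed because Igfbp5 was called with opposite signs in embryo and spheroids and Igfbp2 is its neighbour. Capitals mark motifs searched for on both strands, the E-box CACGTG and the TATA-like TATTTAA, the latter chosen after the sequence had been seen. CACGTG was in 6.02% and TATTTAA in 4.18% of 32851 such windows. The letters TATAAA, the T-box half-site AGGTGTG and the GATA motif AGATAA were in neither window and in 12.4%, 5.1% and 9.99% of all windows.
Igfbp2, chr1:72824230-72824479, plus strand: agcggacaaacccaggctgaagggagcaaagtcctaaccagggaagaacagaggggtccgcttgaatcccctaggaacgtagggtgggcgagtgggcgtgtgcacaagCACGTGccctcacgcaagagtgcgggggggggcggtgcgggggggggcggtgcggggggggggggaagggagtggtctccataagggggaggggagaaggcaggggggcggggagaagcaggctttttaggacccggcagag
Igfbp5, chr1:72874866-72875115, minus strand: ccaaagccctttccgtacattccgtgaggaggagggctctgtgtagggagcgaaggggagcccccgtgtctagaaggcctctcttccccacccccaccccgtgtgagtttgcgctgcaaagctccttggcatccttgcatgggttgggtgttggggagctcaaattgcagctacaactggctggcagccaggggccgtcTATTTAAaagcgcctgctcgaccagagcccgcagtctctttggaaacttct

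The remaining genes lie apart from this pair. In GRCm38, Irs1 (ENSMUSG00000055980) is at chr1:82233101-82291416, Igf2bp3 (ENSMUSG00000029814) at chr6:49085223-49214957 and Igf1r (ENSMUSG00000005533) at chr7:67952827-68233668. Igf1 (ENSMUSG00000020053) is at chr10:87858265-87937042 and Igf2bp2 (ENSMUSG00000033581) at chr16:22059009-22163299. Chromosome 11 holds 3 members, Igfbp3 (ENSMUSG00000020427) at chr11:7206086-7213923, Igf2bp1 (ENSMUSG00000013415) at chr11:95957163-96005940 and Igfbp4 (ENSMUSG00000017493) at chr11:99041244-99054392. Exons of Igf2bp3 share 1529 bases with Malsu1 on the other strand, which is also in the count table. The strand setting of the counting is not given in the sources used here, so reads of this stretch cannot be assigned to either gene with certainty.

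Total counts were 712732 to 2525460 in the embryo GFP+ libraries, 1246546 to 1479957 in embryo RFP+, 828193 to 4371849 in 37 spheroid GFP+ libraries and 445071 to 5658882 in spheroid RFP+. Spheroid GFP+ well C9 held 6288 counts. It was kept in the tests and left out of the levels given below. Fewer genes had reads in embryo GFP+ libraries (6189 to 8302) than in embryo RFP+ (10263 to 13052), so that an absent transcript in the former is less certain. In the spheroid RFP+ group, 7 pairs of wells in columns 3 and 4 of a row were closer to each other than any other pair, with a chi-square of 1.37 to 2.39 per degree of freedom against at least 2.68. These values exceeded sampling noise, which does not show that the wells of a pair are independent samples. The pairs were counted separately, and the counts of libraries and rho values over 46 RFP+ wells were not recomputed with pairs merged. Fits with the pairs summed, leaving 39 spheroid RFP+ libraries, were run as alternatives. The label genes followed the sort in the main. Hcn4 was detected in all 5 embryo GFP+ and all 37 spheroid GFP+ libraries. It had a median of 0 CPM in both RFP+ groups, with reads in 18 of 46 spheroid RFP+ libraries. Tbx1 was at 0 in every embryo GFP+ library. In RFP+ cells Tbx1 was low, with reads in 3 of 4 embryo libraries (median 3.53 CPM) and 41 of 46 spheroid libraries (median 2.42 CPM). The 10 cardiomyocyte markers summed to 20194 to 47429 CPM in embryo GFP+ libraries, 1119 to 2275 in embryo RFP+, 19.8 to 1277 in spheroid GFP+ and 18.6 to 132 in spheroid RFP+. The label of the spheroid GFP+ cells thus rests on Hcn4 and not on sarcomere genes, and Tbx5 had a median of 155 CPM in embryo GFP+ and 0 CPM in spheroid GFP+ libraries.

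The first comparison asked how IGF genes differed between first and second heart field cells of the embryo. Igfbp5 fell in RFP+ cells. This gene, which encodes a binding protein common in mesenchyme and muscle precursors, was present at 820, 1290, 2152, 1863 and 1112 CPM (counts scaled to the total counts of the library) in the GFP+ libraries and at 305, 285, 386 and 145 CPM in the RFP+ libraries. The groups did not overlap, and the lowest GFP+ library lay above the highest RFP+ library. The log2 fold change was -2.37 ± 0.34 (SE), with an adjusted p of 0.000926 in edgeR's quasi-likelihood test with Benjamini-Hochberg adjustment over all 8503 genes tested. Igfbp5 was the only member past an adjusted p of 0.1 among the 9 tested, against 10.1% of all genes tested. Cardiomyocyte markers moved in the same direction, with 9 of 9 tested lower in RFP+ cells, and their part in the Igfbp5 result was not tested. In libraries of 10 cells, fewer cells of a type and less RNA per cell cannot be told apart.

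The other 3 binding proteins lay the other way. Igfbp2, a carrier known from early epithelia and neural tissue, was at 0, 5.15, 0, 0 and 1.09 CPM in GFP+ libraries and at 67.9, 19.8, 32.9 and 29.7 CPM in RFP+ libraries. Every RFP+ library lay above every GFP+ library. Igfbp2 passed edgeR's filter on low counts through its RFP+ libraries alone, so this separation is no support. The log2 fold change was 4.65 ± 1.66 (SE) with an adjusted p of 0.136 in edgeR, and it missed the threshold. Without GFP+ library B12, which held the highest GFP+ value, it was 6.81 with an adjusted p of 0.0201. The GFP+ libraries left were at 0 to 1.09 CPM, so that the size of this value rests on levels near 0. Over 15 alternatives the adjusted p ranged from 2.5e-08 to 0.279. Igfbp4, which binds IGFs until the protease PAPPA cleaves it, was at 81.7, 12.3, 58.9, 15.9 and 1.09 CPM in GFP+ libraries and at 247, 152, 156 and 235 CPM in RFP+ libraries. The groups again did not overlap. Its log2 fold change was 2.56 ± 0.89 (SE) with an adjusted p of 0.123, and 5 of 15 alternatives called it, among them the fits without GFP+ library A12 (adjusted p = 0.046) and without GFP+ library E12 (adjusted p = 0.0735), within a range of 1.13e-08 to 0.324. Igfbp3, the main carrier of the adult circulation, was at 0, 1.19, 0, 12.3 and 0 CPM in GFP+ libraries and at 8.76, 15, 54.6 and 4.73 CPM in RFP+ libraries. These groups overlapped through GFP+ library D12, and the log2 fold change of 2.81 ± 1.60 (SE) had an adjusted p of 0.481.

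The ligand Igf1 failed edgeR's filter on low counts, with 3 counts in RFP+ library H11 and none in GFP+ libraries, and was not tested. It was at 0 in all 5 GFP+ libraries, each of which allows up to 1.19 to 4.21 CPM given a limit of 3 counts, and at 35, 40.3, 8.82 and 2.03 CPM in the RFP+ libraries. Against the highest of these limits the RFP+ mean of 21.5 CPM was at least 5.12-fold higher, and 3 of 4 RFP+ libraries lay above that limit. Taken alone, its mean log2 CPM differed with p = 0.0159 in a two-sided exact permutation test (n = 5 and 4), which is the smallest p that this design allows. The same test, without adjustment over genes, gave p = 0.0159 for Igfbp2, Igfbp4 and Igfbp5 and p = 0.0476 for Igfbp3 and Igf2bp2, and larger values for the other 4 members (0.127 to 0.873). The CPM of the groups did not overlap for 3 of the 9 members tested, Igfbp2, Igfbp4 and Igfbp5, against 17.3% of all genes tested, nor for Igf1. Igfbp2 passed the filter on low counts through its RFP+ libraries alone, so its lack of overlap was set by the filter and is no support. Its permutation p of 0.0159 restates that separation and is no support either. Summed markers of endothelium, endoderm and neural ectoderm were also higher in most RFP+ libraries. The 8 endothelial markers summed to 0 to 101 CPM in embryo GFP+ and 62.6 to 362 CPM in embryo RFP+ libraries. Pecam1, Cdh5, Tie1 and Emcn were at 0 in every GFP+ library. The 9 endoderm markers summed to 0 to 20.3 and 8.78 to 648 CPM, with Sox17, Foxa2 and 6 others at 0 in every GFP+ library. The 7 neural ectoderm markers summed to 0 to 9.26 and 21.6 to 85 CPM without overlap. RFP+ library F12, which held the highest Igfbp2 and Igfbp4, had 1160 CPM of blood markers, against 0 in the other 3. Within the RFP+ group, library H11 had the highest endothelial sum (362 CPM), the lowest endoderm sum (8.78 CPM), Igf1 at 2.03 CPM and Igfbp4 at 235 CPM. The values of F12 and H11 are those of single libraries and are given as descriptions. The 10 pharyngeal mesoderm markers summed to 71.1 to 356 CPM in embryo GFP+ and 300 to 433 CPM in embryo RFP+ libraries. Tek, an endothelial marker, had a log2 fold change of -1.09 and was not called. The part of these marker genes in the values of the members was not tested.

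The receptor, its adaptor and the RNA-binding proteins did not pass the test in the embryo. Igf1r was at 56.1, 109, 46.3, 84.7 and 6.56 CPM in GFP+ libraries and at 82.4, 130, 97.1 and 91.2 CPM in RFP+ libraries (log2 fold change 0.69 ± 0.81 (SE), adjusted p = 0.845). Irs1 was at 87.8, 99, 0, 284 and 0 CPM in GFP+ libraries and at 49.6, 51.2, 4.81 and 48 CPM in RFP+ libraries. Its GFP+ values covered the RFP+ values, and the log2 fold change of -1.35 ± 1.51 (SE) had an adjusted p of 0.831, whereas the difference of mean log2 CPM had the opposite sign (0.53). Igf2bp2 was at 236, 258, 167, 213 and 433 CPM in GFP+ and at 185, 128, 147 and 126.4 CPM in RFP+ libraries, with 3 of 4 RFP+ libraries below every GFP+ library and 1 inside their range. Its log2 fold change was -0.86 ± 0.39 (SE), with an adjusted p of 0.294, and 0.0992 without GFP+ library C12. Over 15 alternatives it lay between 0.00143 and 0.628. The GFP+ values of Igf2bp1 (124 to 391 CPM) covered its RFP+ values (146 to 220), with a log2 fold change of -0.38. Igf2bp3 was at 345, 478, 118, 342 and 337 CPM in GFP+ and at 215 to 293 CPM in RFP+ libraries. GFP+ library C12 lay below every RFP+ library and all other GFP+ libraries above, with a log2 fold change of -0.39.

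**Figure D1:**
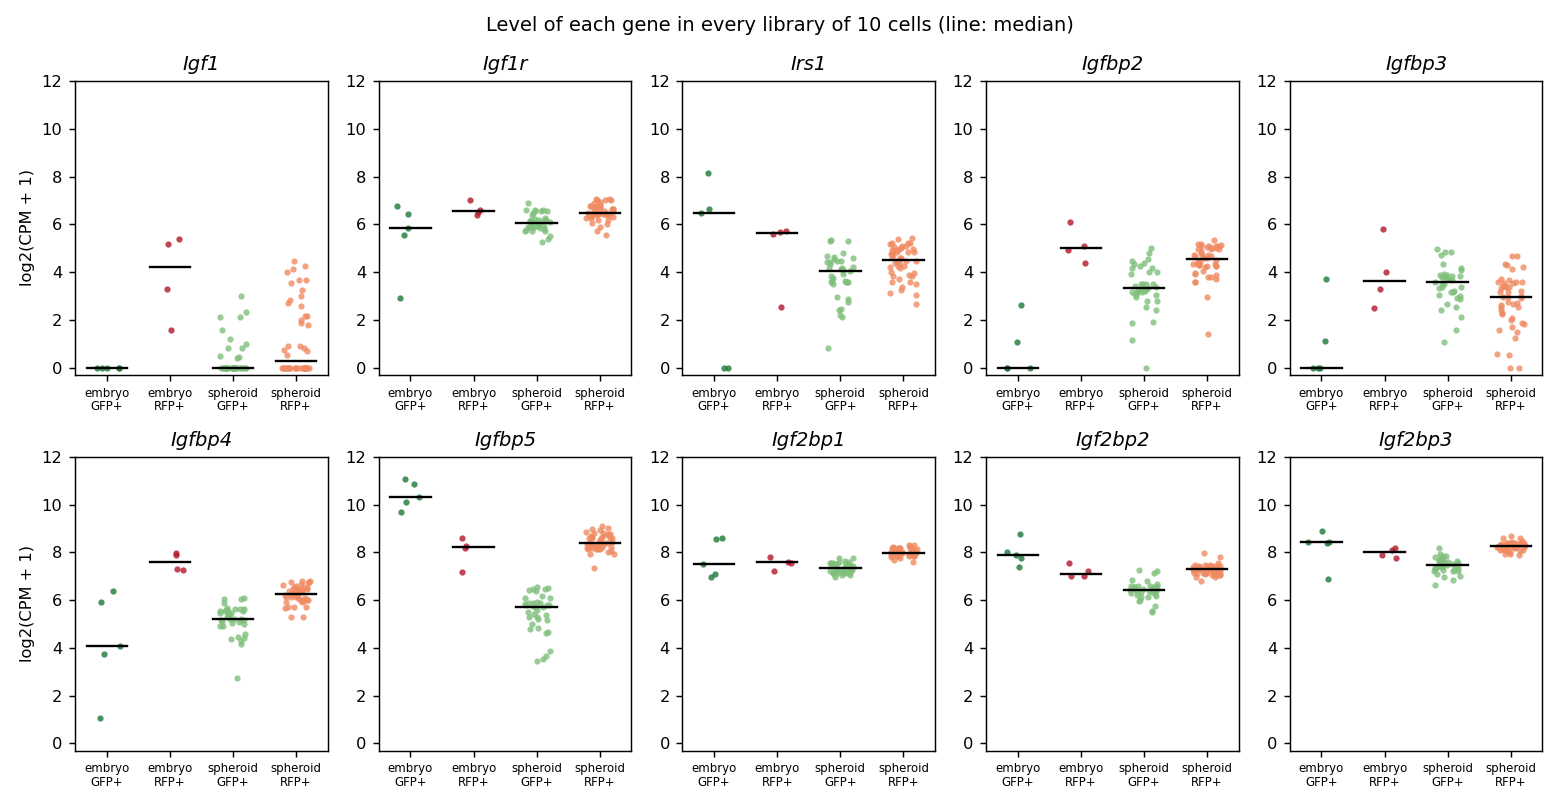
Level of each of the 10 genes in every library, as log2 of CPM plus 1, in the 4 groups. Points are libraries of 10 cells, lines are medians, and spheroid GFP+ well C9 is left out. Igfbp5 is highest in embryo GFP+ and lowest in spheroid GFP+ libraries, and Igf1 is at 0 in all 5 embryo GFP+ libraries.

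The same question was asked of the spheroids, where all 9 members tested were called, 8 higher and 1 lower in RFP+ cells, in a comparison that called 77.9% of the 9940 genes tested. A call by itself therefore says little here, and the size of the differences is more telling: the median absolute log2 fold change of called genes was 0.60. Igfbp5 rose in RFP+ cells. It ranged from 9.84 to 93.7 CPM (median 52) in GFP+ libraries and from 163 to 550 CPM (median 335) in RFP+ libraries, so that all 46 RFP+ libraries lay above all 37 GFP+ libraries. The log2 fold change was 2.81 ± 0.12 (SE), with an adjusted p of 1.51e-39 in edgeR. Igfbp5 was the only member whose groups did not overlap, which held for 3.36% of all genes tested.

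Igfbp4 and Igfbp2 rose as well. Igfbp4 ranged from 5.72 to 67.8 CPM (median 36.5) in GFP+ and from 37.8 to 111 CPM (median 75.4) in RFP+ libraries, with 31 of 46 RFP+ libraries above the highest GFP+ value (log2 fold change 0.99 ± 0.10 (SE), adjusted p = 5.85e-16). Igfbp2 ranged from 0 to 31.6 CPM (median 9.22) and from 1.63 to 39.6 CPM (median 22.2), with 10 of 46 RFP+ libraries above all GFP+ libraries (1.00 ± 0.17 (SE), adjusted p = 3.04e-07). Igfbp3 was the exception and fell in RFP+ cells, from a median of 10.9 CPM (1.14 to 30) to one of 6.75 CPM (0 to 24.6), a log2 fold change of -0.63 ± 0.22 (SE) with an adjusted p of 0.00881 and wide overlap. The 3 RNA-binding proteins rose by like amounts. Igf2bp1 went from a median of 163 CPM (124 to 219) to 249 CPM (190 to 314), and 43 of 46 RFP+ libraries lay above the highest GFP+ library (log2 fold change 0.63 ± 0.04 (SE)). Igf2bp2 went from 84.7 (43.7 to 153) to 156 CPM (110 to 253), with a log2 fold change of 0.82 ± 0.07 (SE). Igf2bp3 went from 178 (99.5 to 286) to 309 CPM (237 to 409), with a log2 fold change of 0.77 ± 0.05 (SE). In each of the 3 genes all 46 RFP+ libraries exceeded the GFP+ median, and the adjusted p was 1.21e-20 or less.

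The receptor and adaptor changed least. Igf1r had medians of 65.4 CPM (37.6 to 118) in GFP+ and 88.2 CPM (46.7 to 133) in RFP+ libraries (log2 fold change 0.41 ± 0.08 (SE), adjusted p = 1.35e-06), and Irs1 of 15.6 CPM (0.798 to 39.3) and 22 CPM (5.33 to 41.9; 0.46 ± 0.17 (SE), adjusted p = 0.0145). Both overlapped widely. Igf1 was below the filter on low counts, with reads in 12 of 37 GFP+ libraries, at most 7.03 CPM, and in 23 of 46 RFP+ libraries, at most 20.8 CPM. Its mean log2 CPM was higher by 0.76 in RFP+ cells (two-sided permutation test, p = 0.00394 and 0.00492 without well C9). The sum of the 9 endoderm markers was 179 to 513 CPM in spheroid GFP+ and 17.5 to 192 CPM in RFP+ libraries. Most of it came from Epcam (medians of 117 and 26.3 CPM) and Cldn6 (156 and 59.4), whereas Foxa2 was higher in RFP+ libraries (0 and 8.43). The 8 endothelial markers summed to 1.26 to 48.9 and 3.33 to 147 CPM. Lower in RFP+ libraries were the summed pluripotency markers (medians of 149 and 35.9 CPM). Their part was not tested.

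**Figure D2:**
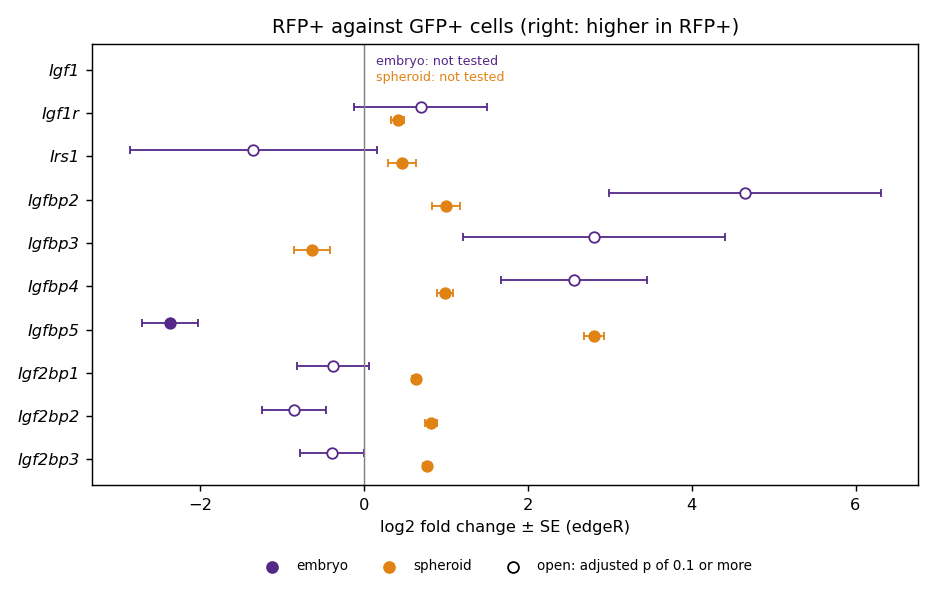
Log2 fold change of RFP+ against GFP+ cells with its standard error, in the embryo and in spheroids. Filled points passed an adjusted p of 0.1. Igfbp5 lies at -2.37 in the embryo and at 2.81 in spheroids, on opposite sides of 0.

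Because Igfbp5 passed the test in both sources with opposite signs, the difference between them was tested itself. The log2 fold change of RFP+ against GFP+ cells was higher by 5.18 ± 0.36 (SE) in spheroids than in the embryo for Igfbp5 (adjusted p = 0.00721 over 8182 genes), and higher by 1.68 ± 0.40 (SE) for Igf2bp2 (adjusted p = 0.0812). These were 2 of the 9 members tested, against 5.26% of all genes tested. The Igfbp5 difference was called in each of 14 alternatives, with an adjusted p of 2.05e-19 to 0.0653. That of Igf2bp2 was called in 7 of 14, within a range of 3.11e-09 to 0.265, and was lost without GFP+ library B12 or E12 or without any single RFP+ library, where its adjusted p lay between 0.106 and 0.265. Igf2bp3 (1.15 ± 0.39 (SE), adjusted p = 0.245) and Igf2bp1 (1.00 ± 0.44 (SE), adjusted p = 0.429) had differences of the same sign. Without GFP+ library C12 the Igf2bp3 difference was 1.38 with an adjusted p of 0.0526, within a range of 1.2e-06 to 0.533 over its alternatives. Igfbp2 (-3.64 ± 1.67) and Igfbp3 (-3.43 ± 1.62) had large differences with large standard errors and adjusted p of 0.463 and 0.483.

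The balance between the binding proteins changed with it. Per kilobase of exon, embryo GFP+ cells held a mean of 241 CPM of Igfbp5 against 8.66 of Igfbp4, 0.865 of Igfbp3 and 0.855 of Igfbp2. In embryo RFP+ cells Igfbp4 (50.4) and Igfbp5 (46.6) stood side by side, followed by Igfbp2 (25.7) and Igfbp3 (6.63). In spheroid GFP+ cells the means were close together, at 9.71 for Igfbp4, 8.28 for Igfbp5, 7.69 for Igfbp2 and 3.8 for Igfbp3, and in spheroid RFP+ cells Igfbp5 (58.4) again led Igfbp4 (19.6), Igfbp2 (15.6) and Igfbp3 (2.51). Among the counts of these 4 genes, Igfbp5 made up 90.9% to 99.8% in embryo GFP+, 34.9% to 61.3% in embryo RFP+, 10.8% to 68.3% in spheroid GFP+ and 60.3% to 86% in spheroid RFP+ libraries. Per kilobase, Igfbp5 exceeded Igfbp2 in all 5, all 4 and all 46 libraries of embryo GFP+, embryo RFP+ and spheroid RFP+ cells, and in 22 of 37 spheroid GFP+ libraries.

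**Figure D3:**
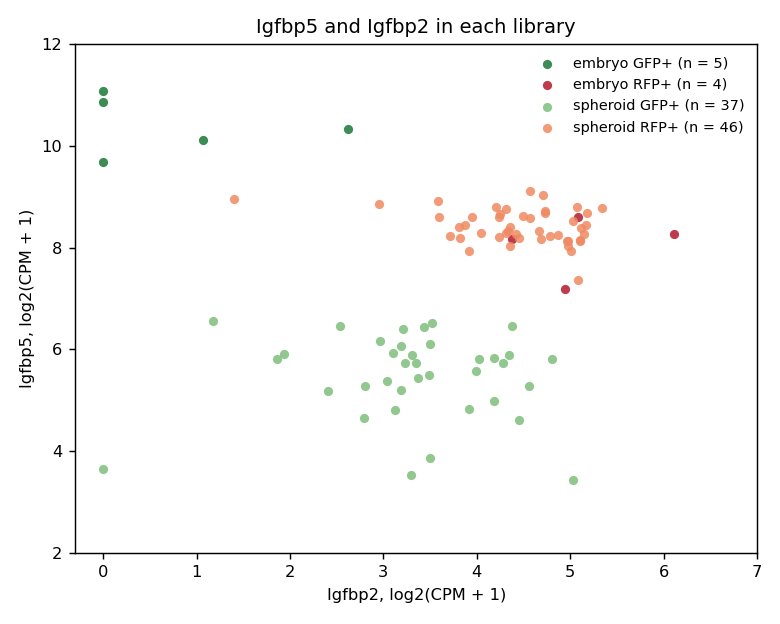
Igfbp5 against Igfbp2 in each library, both as log2 of CPM plus 1, coloured by group. Embryo GFP+ libraries are at the upper left, at 820 to 2152 CPM of Igfbp5 with at most 5.15 CPM of Igfbp2. Spheroid GFP+ libraries lie lowest in Igfbp5, at 9.84 to 93.7 CPM, and the 4 embryo RFP+ libraries hold 145 to 386 CPM of Igfbp5 with 19.8 to 67.9 CPM of Igfbp2.

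The means of the RNA-binding proteins per kilobase of exon had 1 order in the 4 groups. Per kilobase, Igf2bp3 was the highest of the 3 in each group by its mean, at 74.6 CPM in embryo GFP+, 58.6 in embryo RFP+, 41.1 in spheroid GFP+ and 70.9 in spheroid RFP+ cells. Igf2bp2 followed in each group, at 64.7, 36.2, 21.6 and 38.6 CPM per kilobase, and Igf2bp1 was lowest at 28.8, 22.3, 19.6 and 30.6. In embryo GFP+ cells the SDs of Igf2bp3 (130 CPM around a mean of 324) and Igf2bp2 (102 around 261) exceeded the gap between these neighbours in the order. Scaled by exon length, the SD of Igf2bp2 in spheroid GFP+ cells (23.7 CPM around a mean of 87.2) likewise exceeded its gap to Igf2bp1. The order depends on this scaling. In CPM, the Igf2bp1 mean exceeded that of Igf2bp2 in embryo RFP+ (187 and 146), spheroid GFP+ (164 and 87.2) and spheroid RFP+ cells (256 and 156). The summed CPM of the 3 was 466 to 1161 in embryo GFP+, 508 to 673 in embryo RFP+, 315 to 559 in spheroid GFP+ and 618 to 893 in spheroid RFP+ libraries, and the last 2 groups did not overlap.

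**Figure D4:**
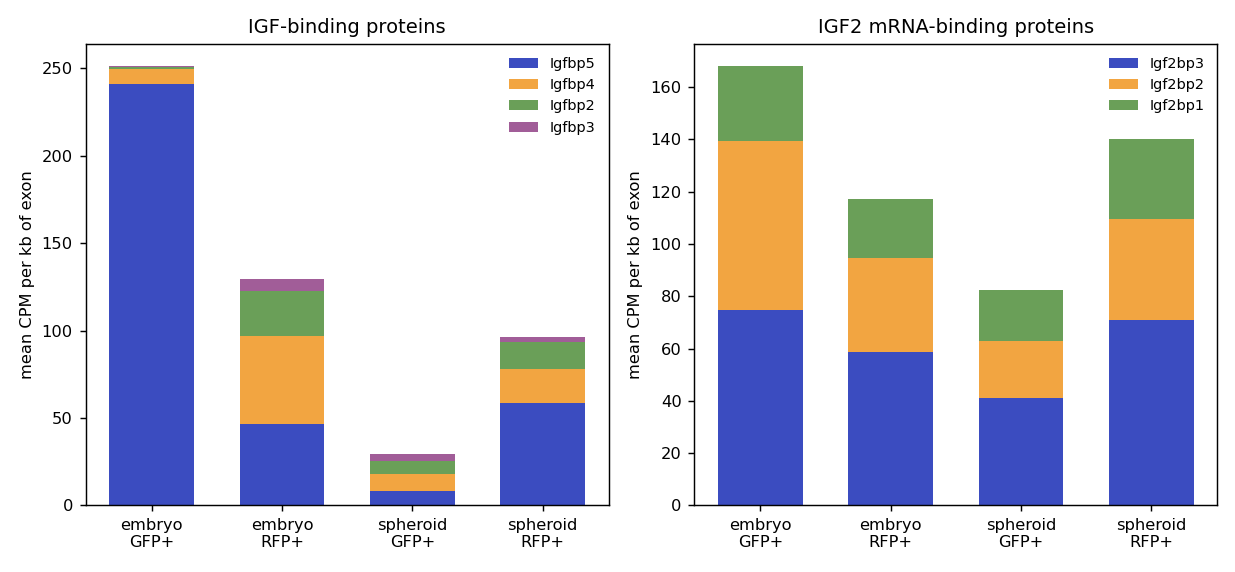
Mean CPM per kilobase of exon in each group, stacked for the 4 binding proteins (left) and the 3 RNA-binding proteins (right). Igfbp5 makes up nearly the whole bar of embryo GFP+ cells (241 CPM per kilobase), while each of the RNA-binding proteins contributes to every bar and Igf2bp3 contributes most.

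The second question was how far spheroid cells resembled their counterparts in the embryo. In GFP+ cells, 7 of 9 members tested were called, 2 higher and 5 lower in spheroids, where 68% of 11822 genes were called. All genes tested had a median log2 fold change of 0.67 here, and of 0.22 with DESeq2's size factors, so that each value is best read against this shift. The split of all calls was 71.1% higher with TMM and 57.4% with those size factors. Between sources, the share of all genes whose groups did not overlap was not computed. A lack of overlap is therefore only a description here. Igfbp5 fell furthest, from 820 to 2152 CPM in the embryo to 9.84 to 93.7 CPM in spheroids, without overlap (log2 fold change -4.71 ± 0.24 (SE), adjusted p = 1.49e-22, and -5.38 relative to the median of all genes). Irs1 fell by 2.49 ± 0.47 (SE) on the log2 scale (adjusted p = 1.15e-05). The exact zeros of 2 embryo libraries lay below every spheroid library, and the mean log2 CPM of the groups differed with p = 0.383 in a two-sided permutation test.

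The 3 RNA-binding proteins also fell in GFP+ cells. Igf2bp2 fell from 167 to 433 CPM to 43.7 to 153 CPM without overlap (-1.46 ± 0.19 (SE), adjusted p = 2.65e-09), Igf2bp3 fell by 0.77 ± 0.17 (SE) with an adjusted p of 0.000162, and Igf2bp1 fell by 0.41 ± 0.17 (SE) with an adjusted p of 0.0297. The Igf2bp1 call was lost without embryo GFP+ library A12 (-0.23, adjusted p = 0.737) or E12 (-0.24, adjusted p = 0.595), within a range of 3.11e-07 to 0.737 over its alternatives. Igfbp2 rose, with 31 of 37 spheroid libraries above the highest embryo value (2.89 ± 0.73 (SE), adjusted p = 0.000599), and so did Igfbp3 (1.99 ± 0.62 (SE), adjusted p = 0.00488). Igfbp2 passed the filter on low counts through its spheroid libraries alone, so its call is not taken as support. Without embryo library B12 the Igfbp2 difference was 5.41, and without D12 the Igfbp3 difference was 4.51. The embryo libraries left were at 0 to 1.09 CPM of Igfbp2 and at 0 to 1.19 CPM of Igfbp3, so that the size of both differences rests on levels near 0. Igf1r (0.25 ± 0.28 (SE)) and Igfbp4 (0.35 ± 0.39 (SE)) did not pass, and both turned slightly negative with DESeq2's size factors (-0.14 each). Without embryo library A12 Igfbp4 passed at 0.99 (adjusted p = 0.0365), and without B12 Igf1r passed at 0.65 (adjusted p = 0.0523).

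In RFP+ cells, 7 of the 10 members were called between spheroid and embryo, 2 higher and 5 lower in spheroids, where 42.6% of 11147 genes were called. Igfbp5 was at 145 to 386 CPM in the embryo and 163 to 550 CPM in spheroids (log2 fold change 0.28 ± 0.17 (SE), adjusted p = 0.209, and 0.50 with an adjusted p of 0.0501 without embryo library G12), Igf1r at 82.4 to 130 and 46.7 to 133 CPM (-0.17 ± 0.16 (SE)), and Igf2bp2 at 126.4 to 185 and 110 to 253 CPM (0.04 ± 0.11 (SE)). None of these passed the test. Igfbp4 fell by 1.41 ± 0.15 (SE) with an adjusted p of 1.56e-11, and all 46 spheroid libraries lay below the lowest embryo library. How many of all genes had no overlap in this comparison was not computed. Igf1 fell from 2.03 to 40.3 CPM to 0 to 20.8 CPM (-2.68 ± 0.83 (SE), adjusted p = 0.00828), with 23 of 46 spheroid libraries at 0. In DESeq2 its adjusted p was 0.166, within a range of 0.00637 to 0.166 over its alternatives.

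Of the smaller changes in RFP+ cells, those of Igfbp3, Igfbp2, Irs1 and Igf2bp3 rested on few embryo libraries. Igfbp3 had a log2 fold change of -1.46 ± 0.51 (SE) with an adjusted p of 0.0196, and of -0.31 (adjusted p = 0.755) without embryo library G12. Igfbp2 had -0.76 ± 0.29 (SE) with an adjusted p of 0.0363, and -0.34 (adjusted p = 0.486) without F12. Irs1 had -0.83 ± 0.33 (SE) with an adjusted p of 0.0409, which was 0.149, 0.185 and 0.169 without F12, G11 and H11. Among the RNA-binding proteins, Igf2bp1 rose by 0.41 ± 0.10 (SE; adjusted p = 0.000531), with 43 of 46 spheroid libraries above the highest embryo library. It was called in all 11 alternatives, with an adjusted p of 0.000133 to 0.0271. Igf2bp3 passed at 0.23 ± 0.09 (SE; adjusted p = 0.0494), and missed the threshold without G12 (adjusted p = 0.222) or H11 (adjusted p = 0.131). The comparisons within a source and those between sources use the same libraries, and their values stand side by side here without a test of one against the other.

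**Figure D5:**
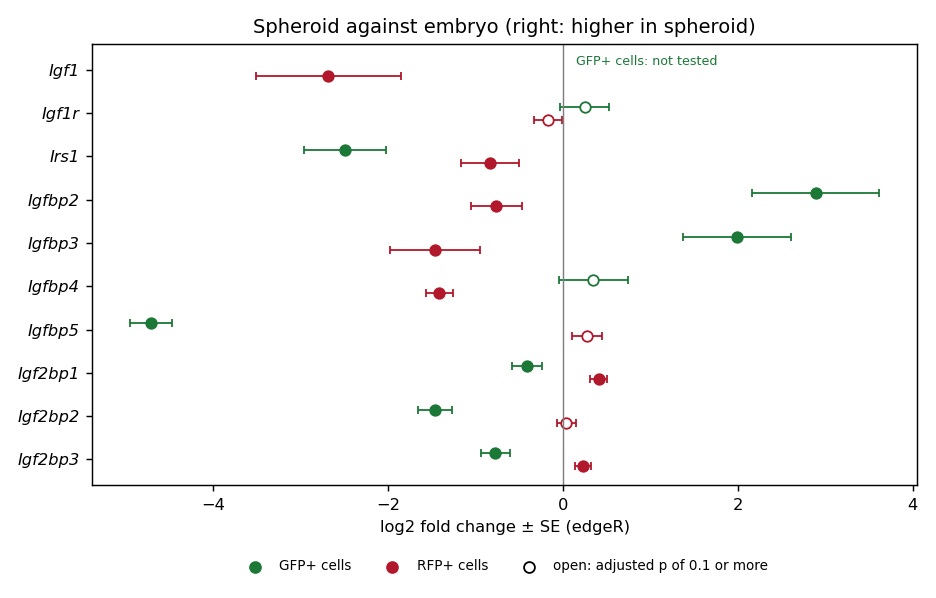
Log2 fold change of spheroid against embryo cells with its standard error, for GFP+ and RFP+ cells. Filled points passed an adjusted p of 0.1. The Igfbp5 point of GFP+ cells lies at -4.71, that of RFP+ cells at 0.28.

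The other genes of the pathway, 60 in all, were taken from lists. In the embryo, 40 were tested and 3 were called, 1 higher and 2 lower in RFP+ cells, against 10.1% of all genes called. Grb10, an adaptor that dampens receptor signalling and is imprinted, was at 1715 to 3626 CPM in GFP+ and 498 to 645 CPM in RFP+ libraries (log2 fold change -2.23 ± 0.24 (SE), adjusted p = 0.000123), and Igf2r, which clears IGF2 from the cell surface, fell by 1.59 ± 0.38 (SE) with an adjusted p of 0.0181. Pabpc1, the poly(A)-binding protein, rose by 1.49 ± 0.34 (SE) with an adjusted p of 0.0147. The ligand gene Igf2 was at 598 to 721 CPM in embryo GFP+ and 305 to 579 CPM in embryo RFP+ libraries and was not called (adjusted p = 0.11), although the groups did not overlap. The 19 genes of the PI3K and AKT list that were tested had a median log2 fold change of -0.07, beside 0.09 for all genes, and none of them was called by edgeR.

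In spheroids, 45 of the 60 were tested, 21 rose and 16 fell in RFP+ cells, where 37.8% of all genes tested rose and 40.1% fell, so that the count is near that of all genes. Igf2 rose by 1.18 ± 0.25 (SE) on the log2 scale, from a median of 7.66 to 28.4 CPM, and the difference from the embryo was itself called (1.92 ± 0.36 (SE), adjusted p = 0.0414), as was that of Pabpc1 in the other direction (-1.62 ± 0.34 (SE), adjusted p = 0.0562). Igf2r fell by 1.94 ± 0.10 (SE), and Grb10 by 2.72 ± 0.23 (SE), so that both were lower in RFP+ cells in either source. Pappa, the protease of IGFBP4, rose by 1.57 ± 0.20 (SE). Of 7 receptor adaptors tested, 5 fell and 1 rose, beside 40.1% and 37.8% of all genes (median log2 fold change -0.44), among them Gab1 (-2.08 ± 0.10) and Irs2 (-1.61 ± 0.17). Of 22 PI3K and AKT genes, 8 rose and 9 fell, with a median of -0.05: the regulatory subunits of PI3K, Pik3r1 (1.95 ± 0.15), Pik3r3 (1.26 ± 0.13) and Pik3r2 (0.60 ± 0.17), were the genes that rose most, and Foxo3 (-2.44 ± 0.25) and Pik3cb (-2.02 ± 0.17) those that fell most. Of 11 partners of the IGF2BP proteins and genes of the let-7 axis, 9 rose and 1 fell, beside 37.8% and 40.1% of all genes (median 0.56, beside -0.02 for all genes). Lin28a (1.11 ± 0.07) rose most, followed by the RNA-binding protein Hnrnpu (0.92 ± 0.04) and by Arid3b (0.84 ± 0.07). In the embryo, Lin28a was at 25.3 to 168 CPM in GFP+ and 112 to 195 CPM in RFP+ libraries and was not called. The embryo values of Igf2 and Lin28a are given although neither passed, a choice made after they were seen.

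Between sources, Igf2, Igf2r and Grb10 were lower in spheroids in both populations, with no overlap of libraries. The share of all genes without overlap was not computed for these comparisons. Grb10 fell by 6.47 ± 0.22 (SE) in GFP+ and by 7.15 ± 0.25 (SE) in RFP+ cells, Igf2 by 5.51 ± 0.43 (SE) and 3.79 ± 0.27 (SE), and Igf2r by 2.29 ± 0.15 (SE) and 2.83 ± 0.21 (SE), all on the log2 scale. Of the 60 genes, 20 rose and 11 fell among 48 tested in GFP+ cells, where 48.3% of all genes rose and 19.7% fell, and 18 rose and 12 fell among 47 tested in RFP+ cells, where 22.5% rose and 20.1% fell. In GFP+ cells Foxo1, Foxo3, Irs3, Irs4 and Stc1 were among those that rose, but all 5 embryo libraries were at 0 for each of them and no fold is given. The adaptor Irs2 and the PI3K catalytic subunit Pik3cb were also called higher, with 4 of 5 embryo libraries at 0 and the other at 11.2 and 10.6 CPM, so that their folds are not given either. Pabpc1 (2.10 ± 0.14) rose and Arid3b (-1.13 ± 0.32) fell. Grb14 and Pik3r2 were called lower, but their embryo values were uneven: Grb14 was at 0 in 3 of 5 libraries and reached 233 CPM, with a median of 0 CPM against 4.44 in spheroids, and Pik3r2 was at 0 in 2 and reached 84.3 CPM, with medians of 6.13 and 7.96 CPM. In RFP+ cells Pik3r3 (2.58 ± 0.32), Pik3r1 (2.08 ± 0.29) and Dhx9 (1.03 ± 0.12) rose, and Pik3r2 (-1.27 ± 0.31) and Lin28b (-0.66 ± 0.14) fell. Igfbpl1 was called lower, with embryo values of 0 to 48.7 CPM and medians of 5.31 and 3.32 CPM.

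Across spheroid libraries of 1 population, the genes whose levels ran most like those of a member were ranked by Spearman's rho over 37 GFP+ and over 46 RFP+ wells, taking the smaller of both. Igfbp5 ran most like Snai2 (rho 0.51 in GFP+ and 0.52 in RFP+ wells), Ebf2 (0.45 and 0.56) and Isl1 (0.41 and 0.50), transcription factors of mesenchyme and, for Isl1, of cardiac progenitors. Between the spheroid populations Isl1 went the other way, with medians of 62 CPM in GFP+ and 23.3 CPM in RFP+ libraries, beside 52 and 335 CPM for Igfbp5. Igf2bp3 ran most like Nap1l1 (0.52 and 0.46), Fbn2 (0.47 and 0.45) and Pcdh18 (0.45 and 0.49), and Igf2bp1 most like Sox4 (0.43 and 0.47), Fxr2 (0.53 and 0.40) and Tmem70 (0.36 and 0.36). For Igfbp4, Irs1 and Igf2bp2 the leading genes were Soga3 (0.45 and 0.43), S1pr2 (0.42 and 0.39) and Fndc3c1 (0.44 and 0.49). These values are descriptions, the best of 9940 genes in wells that share plate and preparation. The RFP+ wells include the 7 near-identical pairs. The correlation of the 6 members named here with the total counts of a well lay between -0.11 and 0.25.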

How the data were processed

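The authors trimmed reads with Trimmomatic 0.36, aligned them to mm10 with HISAT2 2.0.4 and counted them per gene with featureCounts 1.5.2, per the labels and the study's methods, and deposited raw counts for 93 libraries. Libraries came from poly(A) RNA of 10 cells amplified by PCR without molecular identifiers, so limits from counts cover counting error only. Annotation and strand setting are not given in the sources used here.

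Groups followed the sample labels. CPM used the total counts of a library. Each comparison was fitted on its own groups in R 4.3.3 with edgeR 4.0.16 (TMM, filterByExpr with a minimum count of 10, a minimum total of 15 and a proportion of 0.7, quasi-likelihood test) and called at a Benjamini-Hochberg adjusted p under 0.1 over all genes tested. The difference between sources used the standard errors of both fits with 7 degrees of freedom. Levels of single genes were compared on log2 CPM (prior count 2) by exact permutation, or by 100000 resamples where spheroids were involved. The fits were tested on simulated data. Alternatives were DESeq2 1.42.0, other scalings, no filter, 1 fit over the 4 groups, a stricter threshold, plate row, and fits without single libraries or with near-identical wells summed.

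The members and lists were chosen with earlier results of these data known. From each list up to 3 called genes per direction and comparison could be named by size. Likeness was ranked for members with a median of at least 10 CPM in both spheroid groups, leaving out wells under 100000 counts, and 1 of these rankings is not reported here. Sequences were read from RefSeq tables and from GENCODE M21, and 9 of 10 members had a promoter entry.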

Additional observations from a re-analysis of the deposited data

Results flagged for a closer look

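Of 19 groups of embryo libraries examined for a single library far from the others, 3 stood out. The rule flags about 1 in 20 by chance for normally distributed values, a rate that need not hold for CPM with many zeros. Igfbp2 in embryo GFP+ library B12 was at 5.15 CPM with the next library at 1.09 CPM. Igfbp3 in embryo GFP+ library D12 was at 12.3 CPM with the next at 1.19 CPM. Libraries B12 and D12 held the most total counts of the embryo GFP+ group (2525460 and 2267669, against at most 979550 in the others). Irs1 in embryo RFP+ library G12 was at 4.81 CPM, far below the next at 48 CPM.

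The RFP+ against GFP+ log2 fold change differed between spheroids and embryo by 5.18 for Igfbp5 and by 1.68 for Igf2bp2 in the test of the difference itself. Embryo and spheroid libraries of a population also differ in stage and in their plate columns, and neither can be told apart from source here.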

How the results depend on the processing

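Of 558 values of members under alternative settings, 506 kept their direction and their side of the threshold, 20 lost a call, 23 gained one and 9 changed sign. All 81 in the spheroid RFP+ against GFP+ comparison kept both. In the embryo comparison 1 member was called, against 4 with DESeq2, 3 without a filter and 8 in 1 fit over the 4 groups, and 1 to 2 when single libraries were left out. Of the differences between sources 2 were called, against 1 at an adjusted p under 0.05, 9 in 1 fit over the 4 groups, and 1 to 3 without single libraries. For spheroid against embryo RFP+ cells 7 were called, and 4 in 1 fit over the 4 groups. Sign changes among uncalled values were Igf1r in GFP+ cells between sources (-0.16 with DESeq2, -0.14 with its size factors, -0.09 without E12), Igfbp4 there (-0.13, -0.14 and -0.01), Igf2bp2 in RFP+ cells (-0.02 without G11, -0.01 without H11) and Igf1r in the difference (0.01 without E12). Leaving out single libraries gave -0.09 to 0.65 for Igf1r and -0.01 to 0.99 for Igfbp4 in GFP+ cells, both called at their highest value, -0.02 to 0.15 for Igf2bp2 in RFP+ cells and -0.66 to 0.01 for Igf1r in the difference. Over all genes, the 858 embryo calls became 1936 with DESeq2, 2000 without a filter and 7115 in 1 fit, the 7747 spheroid calls 13109 without a filter, and the 430 differences 6889 in 1 fit and 72 without G11, 157 without H11 and 221 without F12. Calls higher in embryo RFP+ cells made up 61.5% and, without a filter, 81.9%. The cause was not tested. Fits without C9 or with near-identical wells summed for the difference, levels without C9 and levels as log2 of CPM plus 1 were chosen after seeing the data. No paired analysis was possible because the groups share no replicate numbers.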

Other observations

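Across spheroid wells the 3 Igf2bp genes, which all rose in RFP+ cells, ran only weakly together within a population. Spearman's rho over 37 GFP+ and 46 RFP+ wells was 0.17 and 0.26 for Igf2bp1 with Igf2bp2, 0.21 and 0.13 for Igf2bp1 with Igf2bp3, and 0.14 and -0.03 for Igf2bp2 with Igf2bp3. The neighbours Igfbp2 and Igfbp5 had a rho of -0.10 and -0.23. These are descriptions without a test, in wells that share a plate.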
